A study of Mus musculus with 4 samples.

Results

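The genes described here are 10 transcription factors that set memory and effector programs in CD8+ T cells, *Tcf7*, *Lef1*, *Id2*, *Id3*, *Eomes*, *Bcl6*, *Prdm1*, *Bach2*, *Runx3* and *Klf2*. They were taken by symbol from the gene tables of tumor-infiltrating Tc1 and Tc9 cells, and are 10 of the 15981 genes that those tables list. Pmel-1 CD8+ T cells carry a transgenic receptor for a melanoma antigen. Thy1.1+ Pmel-1 cells were polarized in culture for 5 days, as Tc1 cells with IL-2 or as Tc9 cells with IL-4, TGF-β and an antibody against IFN-γ. Each kind was transferred i.v. into Thy1.2+ C57BL/6 mice that had carried s.c. B16 melanoma for 10 days. The hosts of both groups also received cyclophosphamide, dendritic cells and IL-2, and 14 days after transfer the cells were sorted from the tumors and RNA of several mice was pooled into 2 libraries per group. Tc1 cells produce IFN-γ and Tc9 cells produce IL-9, and the labels could be read in these genes. *Il9* had 3 counts in Tc1 replicate 2 against 2601 and 2667 in the Tc9 libraries, and *Ifng* had 15303 against 5097 and 4700.

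*Tcf7* and *Lef1* encode the paired DNA-binding partners of β-catenin and mark naive, memory and stem-like cells. Id2 and Id3 bind E proteins and keep them off DNA, and Id3 is known from memory precursors while Id2 supports effector cells. Blimp-1, the product of *Prdm1*, promotes terminal effector differentiation, whereas Bcl6 and Bach2 restrain it and Bcl6 and Blimp-1 repress each other. Eomes is a T-box factor shared by memory and exhausted cells, Runx3 maintains the CD8 lineage and the cytotoxic program, and Klf2 sustains the receptors that let T cells leave tissue.

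The 4 tables do not reach the same genes. They are ordered by gene identifier. Those of Tc1 replicates 1 and 2 list 1535 and 7408 genes, and those of Tc9 list 3152 and 15442. *Bcl6*, *Prdm1*, *Bach2* and *Runx3* lay within all 4 tables, *Lef1*, *Id2*, *Id3*, *Eomes* and *Klf2* within all but that of Tc1 replicate 1, and *Tcf7* within those of the replicate 2 libraries. Tests therefore used 4 libraries for 4 members and 3 libraries for 5 members, and *Tcf7* had 1 library per group and no test. All 10 passed the filter on low counts. The depths of the whole libraries, worked out from count and FPKM together, were 31834276 and 31927162 counts for Tc1 replicates 1 and 2, and 31105615 and 30822953 for Tc9. Differences are given as log2 fold changes of Tc9 over Tc1 cells from edgeR's quasi-likelihood test, with Benjamini-Hochberg adjustment over all genes tested and a threshold of 0.05. With pooled RNA the p-values measure the spread between these libraries only, and fewer cells that express a gene and less RNA per cell cannot be told apart.

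In brief, *Prdm1* fell in Tc9 cells under all 12 alternatives of its test, *Id3* rose in a comparison with 1 Tc1 library and lost its call under 2 alternatives, and the other 7 tested members did not pass the test. In Tc9 cells the FPKM ranges of *Prdm1* and *Bcl6* overlapped, with *Prdm1* above *Bcl6* in each library. *Tcf7*, *Lef1*, *Id2* and *Runx3* were the most abundant members in both kinds of cell, and their estimated differences were within 1.17-fold.

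In FPKM, counts scaled by transcript length and library size, *Id2* was the highest member and *Bcl6* the lowest in both replicate 2 libraries. In Tc1 replicate 2 the order was *Id2* (67.7), *Runx3* (52.6), *Tcf7* (49.97), *Lef1* (34.5), *Eomes* (25.9), *Bach2* (6.10), *Id3* (3.98), *Prdm1* (2.16), *Klf2* (1.65) and *Bcl6* (0.31). In Tc9 replicate 2 it was *Id2* (78.0), *Runx3* (60.5), *Tcf7* (43.8), *Lef1* (42.5), *Eomes* (17.1), *Id3* (8.46), *Bach2* (6.88), *Klf2* (2.34), *Prdm1* (0.68) and *Bcl6* (0.61). The first 5 places were therefore the same, while *Id3* passed *Bach2* and *Klf2* passed *Prdm1*. The neighbours *Prdm1* and *Bcl6* had overlapping ranges over the Tc9 libraries, 0.55 to 0.68 and 0.45 to 0.61 FPKM. Over the Tc1 libraries they were apart, at 2.05 and 2.16 against 0.34 and 0.31 FPKM. In Tc9 cells *Runx3* varied between 50.2 and 60.5 FPKM, below *Id2* at 81.0 and 78.0 in both libraries. *Tcf7* and *Lef1*, 43.8 and 42.5 FPKM in Tc9 replicate 2, lay closer than the 2 Tc9 values of *Lef1*, 40.0 and 42.5.

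**Figure D1:**
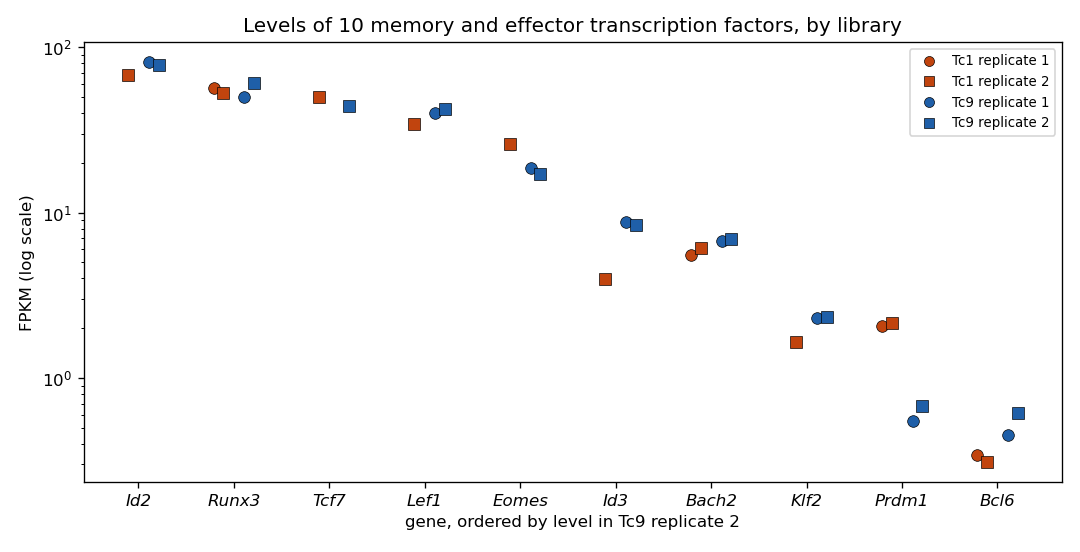
Levels of the 10 transcription factors in FPKM on a log axis, one point per library, with genes ordered by their level in Tc9 replicate 2 and libraries missing where a table does not reach the gene. *Prdm1* sits at 2.05 and 2.16 FPKM in Tc1 cells and at 0.55 and 0.68 in Tc9 cells, and *Id3* at 3.98 against 8.75 and 8.46.

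Promoter windows are shown because the members with the largest differences were *Prdm1*, *Id3* and *Bcl6*, and because the letters that several members are known to bind can be looked for in them. Each is the 250 bases before an annotated transcription start, from RefSeq on GRCm38.p6, which is the mm10 build of the tables, written 5′ to 3′ on the strand of the gene. Capitals mark matches, on either strand, to the E-box CANNTG, the TCF/LEF motif TCAAAG, the STAT and Bcl6 motif TTCNNNGAA, the Runx motif ACCACA, the T-box motif TCACACC, the Klf motif CCACCC and the Bach and AP-1 motif TGANTCA. The *Prdm1* window is chr10:44458749-44458998 on the minus strand and lies within the annotated gene, which reaches further upstream (chr10:44437174-44528558). The *Id3* window is chr4:136143572-136143821 on the plus strand, directly before the gene (chr4:136143822-136145392). *Bcl6* (chr16:23965050-23988866) has 2 listed starts, and the window of the second is chr16:23981284-23981533 on the minus strand, within the gene.
Prdm1: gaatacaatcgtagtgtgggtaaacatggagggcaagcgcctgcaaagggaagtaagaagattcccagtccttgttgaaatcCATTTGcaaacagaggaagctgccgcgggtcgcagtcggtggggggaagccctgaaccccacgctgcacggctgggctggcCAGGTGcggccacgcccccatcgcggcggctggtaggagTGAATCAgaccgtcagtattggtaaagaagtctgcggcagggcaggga
Id3: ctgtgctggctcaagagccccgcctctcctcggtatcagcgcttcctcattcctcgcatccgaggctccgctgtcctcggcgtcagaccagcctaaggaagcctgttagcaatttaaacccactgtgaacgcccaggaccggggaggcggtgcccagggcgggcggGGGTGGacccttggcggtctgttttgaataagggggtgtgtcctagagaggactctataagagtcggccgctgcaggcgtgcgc
Bcl6, second start: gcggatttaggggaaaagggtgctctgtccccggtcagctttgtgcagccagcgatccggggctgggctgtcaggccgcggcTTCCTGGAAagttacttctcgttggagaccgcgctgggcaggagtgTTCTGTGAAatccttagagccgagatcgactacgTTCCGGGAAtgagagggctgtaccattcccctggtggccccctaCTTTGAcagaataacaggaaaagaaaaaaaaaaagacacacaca
The *Prdm1* window held 2 E-boxes and, 48 bases before the start, TGAATCA. The latter matches TGANTCA only because the search allowed any centre base. The *Id3* window held a single Klf match. The second *Bcl6* window held 3 STAT and Bcl6 matches, 168, 122 and 88 bases before the start, and a TCF/LEF match. Its first window, at the outer start, held 1 more STAT and Bcl6 match. Over the 16 windows of the 10 members, a Bach and AP-1 match occurred in 1, against 6.75% of 32851 windows of the same length in the whole table. STAT and Bcl6 matches occurred in 3 of 16 against 7.02%, TCF/LEF in 3 against 13.8%, Klf in 8 against 28.1%, E-boxes in 9 against 66.2%, Runx in 1 against 14.0% and T-box in 0 against 3.33%. *Lef1* contributes 4 of the windows and its first 2 overlap, so the windows are not independent. These are matches of letters and show no binding.

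*Prdm1* was lower in Tc9 cells in every library. Tc1 cells had 336 and 359 counts, and Tc9 cells 89 and 108. The groups did not overlap, and each pair of replicates lay close together beside the gap between groups. The log2 fold change was -1.81 (SE 0.17, 95% interval -2.19 to -1.44), or 3.52-fold lower, with an adjusted p of 3.96e-05 by edgeR's quasi-likelihood test. Of the 1284 genes tested over 4 libraries, 16 had a lower fold change than *Prdm1* and 34 a smaller p. *Prdm1* was the only one of the 4 members tested there that was called lower, and 16.7% of all genes were. None of the 4 was called higher by edgeR or DESeq2, against 17.4% of all genes by edgeR, and 1, *Bcl6*, was higher at an unadjusted p under 0.05. *Prdm1* was also called in the comparison of 2622 genes over 3 libraries, which lacks Tc1 replicate 1, with a log2 fold change of -1.86 and an adjusted p of 0.00819 by edgeR. In that comparison 35 genes had a lower fold change.

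The factors that oppose Blimp-1 had higher values in Tc9 cells without passing the test over all 4 libraries. *Bcl6* was counted 38 and 34 times in Tc1 cells, against 49 and 73 times in Tc9 cells. The groups did not overlap, but the Tc9 libraries differed from each other by more than Tc9 replicate 1 did from Tc1 replicate 1. Its log2 fold change was 0.76 (SE 0.28, 95% interval 0.13 to 1.39), or 1.70-fold, with an adjusted p of 0.0607 by edgeR. *Bcl6* passed the threshold with the replicate number as a block (0.75, SE 0.30, adjusted p = 0.0387 by edgeR), in a fit that used only the spread shared across genes. It also passed without Tc9 replicate 1 (log2 fold change 1.02) but not without Tc9 replicate 2 (0.45). The mean length of the transcripts counted for it was 3611 and 3527 bases for Tc1 cells, against 3671 and 4002 for Tc9. *Bach2* (chr4:32238413-32586109) reached 1568 and 1706 counts in Tc1 cells, and Tc9 cells had 1826 and 1860. The groups did not overlap, but the gap between them was smaller than the difference between the Tc1 libraries. Its log2 fold change was 0.17 (SE 0.11, 95% interval -0.08 to 0.43, adjusted p = 0.257 by edgeR), and it passed only without Tc9 replicate 1 (0.19, adjusted p = 0.0490).

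Set against *Prdm1* within a library, both repressors took a larger place in Tc9 cells. The ratio of *Bach2* to *Prdm1* in FPKM was 2.72 and 2.82 for Tc1 cells, against 12.2 and 10.1 for Tc9 cells. The ratio of *Bcl6* to *Prdm1* was 0.166 and 0.144 for Tc1 cells, against 0.818 and 0.897 for Tc9 cells. *Prdm1* enters both ratios, so they are not separate measurements of its fall. Per length *Prdm1* was still the more abundant of the pair *Prdm1* and *Bcl6* in all 4 libraries, by a narrow margin in Tc9 cells.

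The genes whose pattern over the 4 libraries was most like that of *Prdm1* were *Gramd3*, *Cth* and *Anxa3*. They were the 3 nearest of 891 genes with at least 10 CPM (counts scaled by library size) on average, by Euclidean distance in log2 CPM centred per gene. *Gramd3* had 875 and 972 counts in Tc1 cells against 269 and 272 in Tc9, at a distance of 0.188. *Cth*, which encodes cystathionine γ-lyase of cysteine synthesis, had 1786 and 2029 against 575 and 543, at 0.259. *Anxa3*, an annexin, had 551 and 579 against 194 and 185, at 0.333. Their log2 fold changes were -1.77, -1.77 and -1.57, and with 4 libraries the likeness rests mainly on this factor.

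*Runx3* (chr4:135120645-135177990) was counted 10862 and 9804 times in Tc1 cells, against 10032 and 11650 times in Tc9 cells. The groups overlapped, and the lowest value and the highest came from different groups without separating them. Its log2 fold change was 0.07 (SE 0.12, 95% interval -0.19 to 0.33, adjusted p = 0.654 by edgeR). It was -0.039 without Tc9 replicate 2 (adjusted p = 0.639) and passed without Tc9 replicate 1 (0.18, adjusted p = 0.0344). The mean transcript length counted for *Runx3* was 6155 and 5965 bases for Tc1 against 6556 and 6386 for Tc9 cells, which did not overlap. Whether the groups use different *Runx3* transcripts was not tested, since the tables give 1 row per gene. Over the 4 members of this comparison the groups did not overlap for 3, against 70.4% of all genes tested, and their median log2 fold change was 0.12 beside 0.00 over all 1284.

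*Id3* was the member that rose. Its count was 104 in Tc1 replicate 2, against 224 and 215 in the Tc9 libraries. Both Tc9 libraries were about as high as each other and above the lone Tc1 library. The log2 fold change was 1.08 (SE 0.25, 95% interval 0.47 to 1.68), or 2.11-fold, with an adjusted p of 0.0481 by edgeR's quasi-likelihood test, in a fit that takes the lone Tc1 library to vary like the Tc9 libraries. It was the 1 member of 5 called higher in this comparison, in which 7.51% of 2622 genes were called higher, and 297 genes had a larger fold change. None of the 5 was called lower by edgeR or DESeq2, against 3.2% of all genes by edgeR, and 1, *Eomes*, was lower at an unadjusted p under 0.05. The call lay close to the threshold. It was lost with DESeq2 (log2 fold change 1.04, adjusted p = 0.0747) and without a filter on low counts (1.08, adjusted p = 0.209). It held in the other alternatives with a test. With a stricter filter, scaling by depth alone or TMM factors of the 3-library range, the fit used only the spread shared across genes. The SE of *Id3* was then 0.303, 0.303 and 0.299, against 0.25 in the main fit.

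*Id2* (chr12:25093799-25096092) had a count of 2472 in Tc1 replicate 2, against 2893 and 2765 in Tc9 cells. The Tc9 libraries were both higher, by a log2 fold change of 0.20 (SE 0.21, 95% interval -0.33 to 0.72, adjusted p = 0.597 by edgeR). In FPKM *Id2* exceeded *Id3* 17.0-fold in Tc1 replicate 2 and 9.26-fold and 9.22-fold in the Tc9 libraries. Id2 transcripts thus remained the larger pool in every library, and the gap was narrower in both Tc9 libraries.

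*Eomes* (chr9:118478186-118486132) had lower values in Tc9 cells. Tc1 replicate 2 had 2965 counts, against 2074 and 1886 in Tc9 cells. Both Tc9 libraries lay below the Tc1 library, with a log2 fold change of -0.58 (SE 0.21, 95% interval -1.10 to -0.07). The adjusted p was 0.152 by edgeR and between 0.0661 and 0.275 under the alternatives with a test, so *Eomes* did not pass. NK cells also express Eomes, and their markers *Ncr1*, *Klrb1c* and *Klra8* had 3, 8 and 7 counts in Tc1 replicate 2 and at most 1 in each Tc9 library, lower in Tc9 cells as *Eomes* was. Their part in its values was not tested. The ratio of *Runx3* to *Eomes* in FPKM was 2.03 in Tc1 replicate 2 and 2.70 and 3.54 in the Tc9 libraries.

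*Klf2* (chr8:72319062-72321654) was low throughout, at 88 counts in Tc1 replicate 2 against 120 and 121 in Tc9 cells. The Tc9 libraries were nearly equal and above the Tc1 library, with a log2 fold change of 0.45 (SE 0.26, 95% interval -0.19 to 1.09, adjusted p = 0.320 by edgeR). *S1pr1*, the egress receptor that Klf2 drives, had 1075 counts against 1212 and 1271, also without passing the test (log2 fold change 0.21, adjusted p = 0.558 by edgeR).

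*Lef1* (chr3:131110297-131224357) had 2607 counts in Tc1 replicate 2, against 2942 and 3138 in Tc9 cells. Its Tc9 values were both higher, with a log2 fold change of 0.22 (SE 0.21, 95% interval -0.30 to 0.75, adjusted p = 0.546 by edgeR). *Tcf7* (chr11:52246527-52283383) had 4165 counts in Tc1 replicate 2 against 3584 in Tc9 replicate 2. Its log2 ratio was -0.22 (95% counting interval -0.28 to -0.15), or 1.16-fold lower. That ratio compares 2 libraries, and 95% of genes in the 3-library range differed by less than 0.73 on the log2 scale between the 2 Tc9 libraries alone. The ratio of *Lef1* to *Tcf7* in FPKM was 0.690 in Tc1 replicate 2 and 0.969 in Tc9 replicate 2. *Tcf7* exceeded *Prdm1* 23.1-fold in Tc1 replicate 2 and 64.5-fold in Tc9 replicate 2. Reads that could come from either member of a related pair, such as *Tcf7* and *Lef1*, may have been split by the counting program, which is not given in the sources used here.

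For the 5 members with 3 libraries the lone Tc1 value lay outside the Tc9 range in 5 of 5 cases, and this held for 81.8% of all genes. Their median log2 fold change was 0.22 beside 0.05 over all 2622 genes. Between the replicate 2 libraries, which reach all 10 members, 7 were higher and 3 lower in Tc9 cells, with a median log2 ratio of 0.21 beside 0.03 over 6161 genes. *Prdm1* (-1.71), *Bcl6* (1.06) and *Id3* (1.03) were at least 2-fold apart there, or 3 of 10 members against 15.2% of all genes. On FPKM + 1, which understates the change of low genes, 0 of 10 members and 381 of 6161 genes were.

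**Figure D2:**
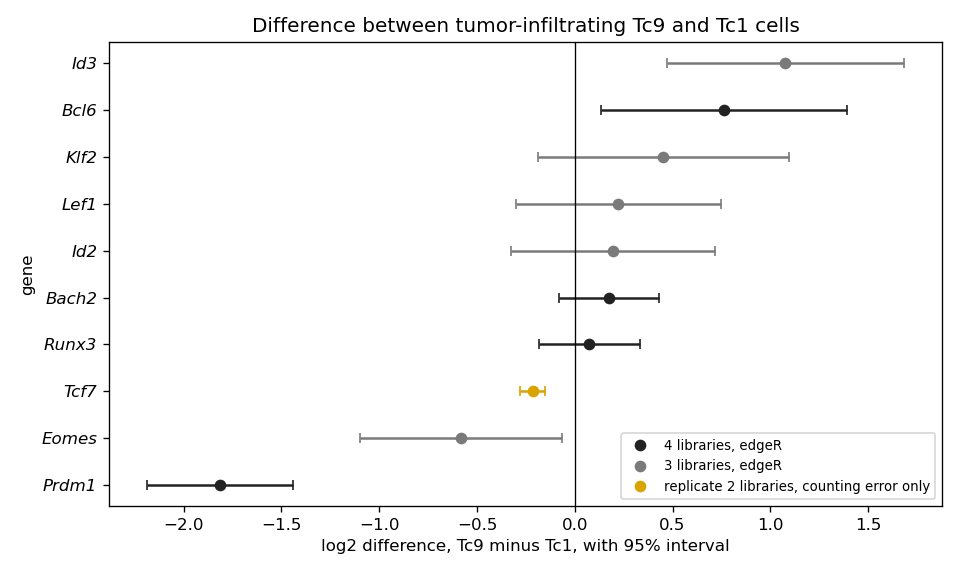
Log2 differences of Tc9 minus Tc1 cells for the 10 transcription factors, with 95% intervals, from the fit over 4 libraries, from the fit over 3 libraries, or, for *Tcf7*, from 1 library per group with a counting interval. The intervals of *Prdm1* (-2.19 to -1.44) and *Id3* (0.47 to 1.68) are farthest from 0, while those of *Bach2*, *Runx3*, *Lef1*, *Id2* and *Klf2* include it.

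**Figure D3:**
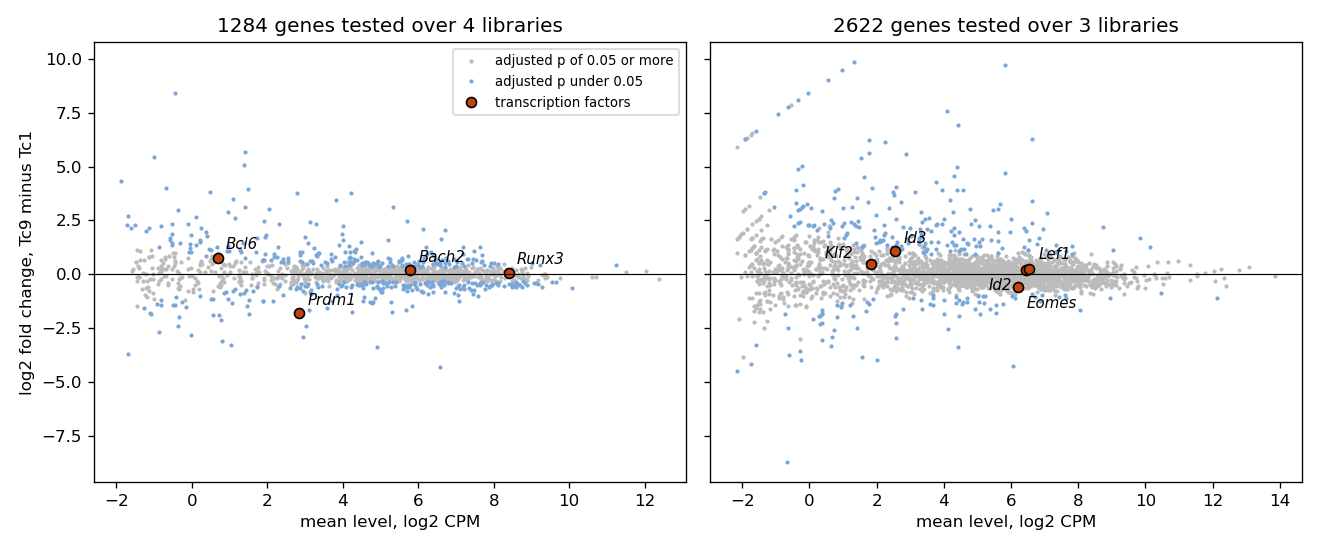
Log2 fold change against mean level in log2 CPM for all genes tested over 4 libraries (left, 1284 genes) and over 3 libraries (right, 2622 genes), with genes under an adjusted p of 0.05 in blue and the transcription factors in red. *Prdm1* lies near the lower edge of the genes at its level, and 16 genes on the left have a lower fold change.

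The partners, relatives and targets of these factors moved unevenly. Among 5 genes of the E protein system on which Id factors act was *Id1*, the third Id gene measured. It had 5 counts in Tc1 replicate 2 against 68 and 79 in Tc9 cells (log2 fold change 3.85). *Id1* passed the filter on low counts only through the Tc9 libraries, so its test is not read here. It was the 1 gene of the list in the 3-library comparison. The E proteins themselves were compared between the replicate 2 libraries only. *Tcf3* had 5002 counts against 5279 in Tc9 cells, *Tcf12* 2196 against 1779, and *Tcf4* 153 against 243, and none of the 3 reached 2-fold, as 15.2% of all genes did. *Id4* is listed in no table under this symbol. *Id1* shares sequence with *Id2* and *Id3*, so that shared reads are possible. At 3.23 FPKM or less it stayed far under *Id2*.

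Of 13 partners and targets of TCF and LEF factors, 3 were tested over 4 libraries and 1 rose, against 17.4% of all genes. *Axin2*, a feedback inhibitor that β-catenin and TCF factors induce, rose from 50 and 47 counts in Tc1 cells to 145 and 169 in Tc9 (log2 fold change 1.70, SE 0.21, adjusted p = 0.000302 by edgeR). *Ctnnb1*, which encodes β-catenin, had 9171 and 8804 against 9879 and 10087 (log2 fold change 0.16, adjusted p = 0.257), and *Ccnd1* did not pass either (adjusted p = 0.753). Between the replicate 2 libraries, 4 of the 6 further genes over the filter were at least 2-fold higher in Tc9 cells and 0 lower, with a median log2 ratio of 1.37 beside 0.03 over all genes, of which 15.2% were 2-fold apart in either direction. These 4, named after their values were seen, were *Tcf7l1* (24 against 76 counts) and the corepressor genes *Tle1* (199 against 878), *Tle2* (19 against 140) and *Tle3* (2650 against 5879). *Tle4*, of the same family, had 570 and 536 counts. *Myc* had 16774 and 23570, short of 2-fold.

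All 5 relatives and cofactors of *Runx3* were tested over 4 libraries. Of these, 1 rose and 1 fell, both of them relatives, against 17.4% and 16.7% of all genes. *Runx1* rose from 272 and 260 counts in Tc1 cells to 631 and 721 in Tc9 cells (log2 fold change 1.35, SE 0.13, adjusted p = 6.25e-05 by edgeR). *Runx2* fell from 2773 and 2512 to 882 and 981 (log2 fold change -1.50, SE 0.12, adjusted p = 1.99e-05 by edgeR). Both groups of libraries were far apart for each, while *Cbfb*, the shared cofactor, had 6925 and 6791 counts against 7729 and 6285. The other 3 genes of the list did not pass the test, and the median of the list was 0.02. In FPKM *Runx3*, at 50.2 or more in every library, exceeded *Runx2*, at 15.3 or less, and *Runx1*, at 3.62 or less.

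Of 12 partners of Bcl6, Blimp-1 and Bach2, 1 of 2 tested over 4 libraries fell and 1 of 5 tested over 3 libraries rose, where 16.7% and 7.51% of all genes did. *Hic1*, a zinc finger repressor gene, rose from 118 counts in Tc1 replicate 2 to 450 and 736 (log2 fold change 2.33, SE 0.38, adjusted p = 0.0166 by edgeR). *Bcl6b*, the close relative of *Bcl6*, fell from 24 and 17 to 3 and 8 counts (log2 fold change -1.87, SE 0.50, adjusted p = 0.0167 by edgeR), opposite in sign to *Bcl6* and at counts near the floor of detection. The corepressor and cofactor genes *Mafk*, *Mafg*, *Hdac2*, *Hdac3* and *Ehmt2* did not pass, and *Ncor1* was not 2-fold apart between the replicate 2 libraries. The median was -0.83 over 4 libraries (2 genes) and 0.06 over 3 libraries (5 genes).

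Among 17 naive and memory genes, which hold many known targets of the factors above, 1 of 4 tested over 4 libraries fell and 1 of 4 tested over 3 libraries rose, again beside 16.7% and 7.51% of all genes. *Cxcr5*, a chemokine receptor gene of stem-like and follicular T cells, fell from 472 and 390 to 63 and 99 counts (log2 fold change -2.41, SE 0.21, adjusted p = 3.19e-05 by edgeR). *Il6ra*, for the IL-6 receptor, rose from 83 counts to 432 and 446 (log2 fold change 2.40, SE 0.25, adjusted p = 0.00452 by edgeR). *Ccr7*, the lymph node homing receptor, had 15814 counts in Tc1 replicate 2, against 7488 and 9298 in Tc9 cells, and missed the threshold (log2 fold change -0.91, adjusted p = 0.0590 by edgeR). The other 5 tested genes did not pass. Between the replicate 2 libraries *Satb1*, a chromatin organizer, was higher (4550 against 20149 counts), named after its values were seen, and 4 further genes were within 2-fold. The medians of the list were -0.12 over 4 libraries, 0.02 over 3 libraries and 0.06 between the replicate 2 libraries, so the list had no common direction.

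Of 20 effector and exhaustion genes, 7 were tested over 3 libraries, and 4 rose and 2 fell, where 7.51% of all genes tested were called higher and 3.2% lower. *Maf* rose from 38 counts in Tc1 replicate 2 to 936 and 874 in Tc9 cells (log2 fold change 4.57, SE 0.29, adjusted p = 0.00136 by edgeR). *Gzma*, a granzyme gene, rose from 116 to 965 and 746 (log2 fold change 2.88, SE 0.29, adjusted p = 0.00445). *Cx3cr1* had 3 counts in Tc1 replicate 2, against 134 and 132 in Tc9 cells, a log2 ratio of the replicate 2 libraries of 4.74 with a counting interval of 3.89 to 7.03. *Ifng* fell (log2 fold change -1.64, SE 0.21, adjusted p = 0.00747 by edgeR), and *Irf4* and *Gzmb* were the others called, higher and lower. Between the replicate 2 libraries, 1 of 9 further genes was 2-fold apart, *Prf1* for perforin, with 4756 counts in Tc1 against 712 in Tc9 cells, beside 15.2% of all genes. The median was 1.27 over 3 libraries and -0.63 between the replicate 2 libraries, which cover different genes of the list. Like all calls over 3 libraries, those of this list were lost without a filter on low counts.

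**Figure D4:**
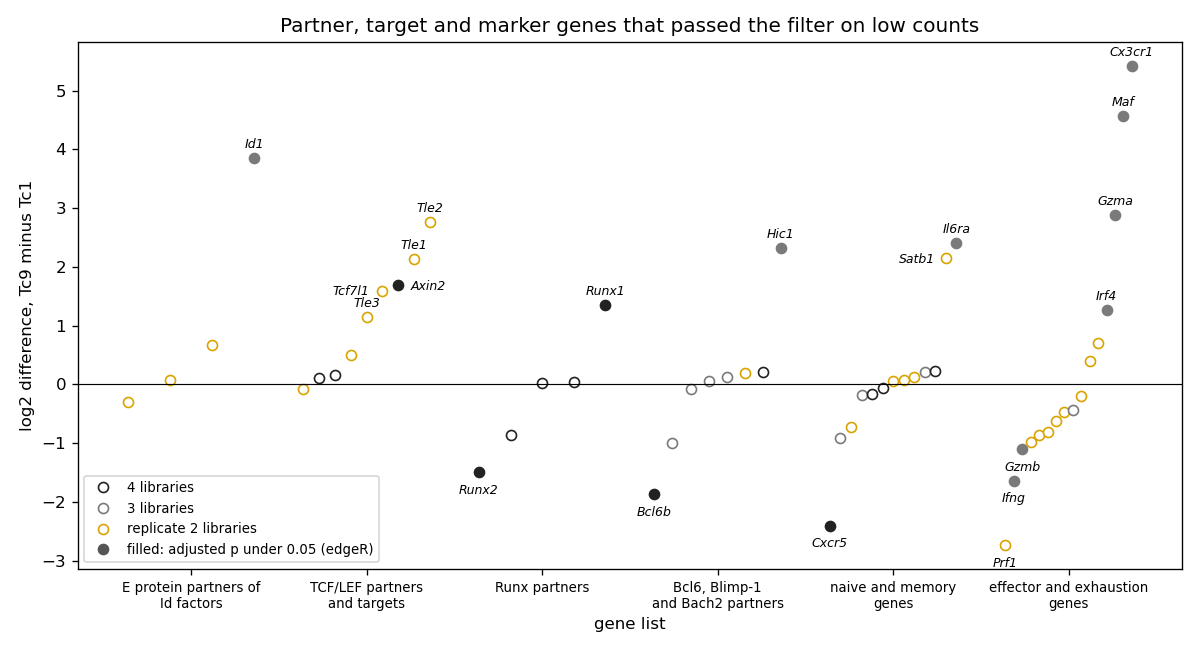
Log2 differences of Tc9 minus Tc1 cells for the reported genes of 6 lists that passed the filter on low counts, with filled points for an adjusted p under 0.05 by edgeR's quasi-likelihood test and open points otherwise. Points from the replicate 2 libraries have no test and are named at 2-fold or more. *Runx1* and *Runx2* lie on opposite sides of 0 (1.35 and -1.50), and *Tle1*, *Tle2*, *Tle3*, *Tcf7l1* and *Axin2* lie above it.

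The sorted cells carried CD8 T cell markers throughout, with a summed FPKM of 2095 in Tc1 replicate 2 and 2162 in Tc9 replicate 2 over 9 of 10 markers. Of the 7 tested over 4 libraries, *Cd3e* (log2 fold change 0.73) and *Cd3g* (0.49) were called higher by edgeR, *Cd2* (-0.44) and *Cd5* (-0.61) lower, and 3 did not pass. Several members are also expressed in B cells, regulatory T cells and myeloid cells. Of the B cell markers, *Ms4a1* had at most 4 counts in any library, but *Cd79b* rose from 155 counts in Tc1 replicate 2 to 380 and 473, and the summed level of the 6 listed markers was 4.76 and 14.2 FPKM in the replicate 2 libraries. Among CD4 T cell markers *Cd4* itself had 50, 45, 56 and 58 counts, whereas *Foxp3* had 34.6 in Tc1 replicate 2 and 1592 in Tc9 replicate 2. The other markers, *Cd40lg* (11 against 2 counts) and *Zbtb7b* (283 against 258), were lower in Tc9 replicate 2. The 4 markers summed to 3.40 and 16.6 FPKM, of which *Foxp3* made up 0.19 and 13.7. Of 11 myeloid markers, 7 had at most 3 counts in each replicate 2 library, *Lyz2*, *Csf1r* and *C1qa* among them, while *Cd68* rose from 226 and 221 counts to 358 and 439. The myeloid markers summed to 18.5 and 24.5 FPKM. *Mpeg1* of the same list fell from 65 counts to 19 and 11. Markers of melanoma summed to 0.57 and 0.97 FPKM (3 of 7 listed in both tables), of NK cells to 0.40 and 0.02, and of endothelium and fibroblasts to 4.27 and 4.39. The part of these markers in the values of *Id3*, *Bcl6*, *Klf2* and *Prdm1* was not tested.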

How the data were processed

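RNA of sorted Tc1 and Tc9 cells was sequenced as 2 pools for each. For every gene the authors deposited an expected count, which is an estimated count without normalization, and FPKM values scaled by transcript length and library size. They also deposited the mean transcript length of each gene. The submitters' processing notes name mm10. The aligner, the counting program and its use of strand are not given in the sources used here. The tables end at different gene identifiers, and 1 incomplete last row was dropped. A gene within the range of a table but not listed was taken as 0.

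Depth per library came from the ratio of count to FPKM over genes whose length was the same in both tables and whose counts reached 500, relative to Tc9 replicate 2. At these depths 3 counts are 0.0942, 0.0940, 0.0964 and 0.0973 CPM in Tc1 replicates 1 and 2 and Tc9 replicates 1 and 2. Intervals on counts cover counting error only: without molecular identifiers, reads are not separate molecules. Expected counts were rounded and tested with edgeR 4.0.16 in R 4.3.3 (quasi-likelihood, two-sided, filterByExpr with a minimum count of 10). TMM factors of the 4-library range (0.990, 0.983, 1.01 and 1.02) were used throughout. Ratios of single libraries used a prior count of 2. DESeq2 1.42.0, limma 3.58.1 on log2(FPKM + 1) and log2(FPKM + 0.1), other filters, other scalings, a replicate block and leaving out libraries were tried as alternatives. The code was tested on simulated data. The chi-square per gene between replicates was 4.55 for Tc1 and 43.0 for Tc9, beyond sampling noise. Any 2 library preparations may differ so, and the libraries are taken as replicates because the labels number them.

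All 10 members were named. Of each related list up to 4 genes were named, those past the threshold by smallest p and, where fewer than 2 passed, the most abundant tested. Genes named beyond this rule, to account for a list, were chosen after their values were seen. Markers were named to account for each marker list. The members and lists were chosen with earlier results of these data known. Promoter windows came from RefSeq on GRCm38.p6 and all 10 members were matched. A few list genes are left unnamed here but enter the totals and medians of their lists. No explanation was tested.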

Additional observations from a re-analysis of the deposited data

How the results depend on the processing

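*Prdm1* kept its direction and its call in 12 of 12 alternatives of the 4-library comparison, with log2 fold changes between -1.96 and -0.94 and an adjusted p of at most 0.00649. Over 4 libraries, without a filter 130 genes were higher and 110 lower. Leaving out 1 library gave 72 to 404 genes higher and 39 to 407 lower, with 72 and 39 without Tc1 replicate 1, 82 and 54 without Tc1 replicate 2, 404 and 407 without Tc9 replicate 1, and 343 and 351 without Tc9 replicate 2. Members called higher numbered 1 at an adjusted p under 0.1 and 1 with the replicate block, *Bcl6* in both (0.75 with the block, adjusted p = 0.0387). They numbered 0 to 3 when 1 library was left out, the 3 being *Bcl6*, *Bach2* and *Runx3* without Tc9 replicate 1 (log2 fold changes 1.02, 0.19 and 0.18, adjusted p = 0.00994, 0.0490 and 0.0344). *Runx3* turned to -0.039 without Tc9 replicate 2 (adjusted p = 0.639). The block called 444 genes, 406 of them among the 438 without it, in a fit that used only the spread shared across genes. Same-numbered libraries did not deviate together (r = -0.07 across 1284 genes, which are not independent replicates), so the numbers were not taken as pairs.

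Over 3 libraries the members called higher were 0 with DESeq2, where *Id3* had an adjusted p of 0.0747 and 338 genes were called in all, and 0 without a filter (*Id3*, 0.209). Without a filter edgeR called 0 genes higher and 0 lower, with 598 at an unadjusted p under 0.05. Genes called higher were 371 and lower 163 when scaling by depth alone, and 327 and 208 with TMM factors of the 3-library range, an alternative chosen after seeing the data. Genes called lower were 176 with a stricter filter and 144 at an adjusted p under 0.1. Between the replicate 2 libraries 381 genes and 0 members were 2-fold apart on FPKM + 1, and 2047 genes were 1.5-fold apart. The cause of these shifts was not tested. In all, 66 of 92 counts stayed within 1.5 times. *Bcl6* had at most 73 counts in a library, and 6 members rest on 1 Tc1 library.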
